A study of Bos indicus with 6 samples.

Results

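The proteoglycan families of the matrix are secreted core proteins, many of which carry long sulfated glycosaminoglycan chains. The small leucine-rich family binds collagen fibrils and sets how they assemble, versican holds water and hyaluronan in loose matrix, and perlecan builds basement membranes around epithelium, vessels and muscle cells. In the oviduct wall they form part of the stroma beneath the epithelium and of the matrix between the smooth muscle layers, and the isthmus is the muscular segment next to the uterus. The 10 genes examined were DCN (decorin), BGN (biglycan), ASPN (asporin), LUM (lumican), FMOD (fibromodulin), PRELP (prolargin), OGN (osteoglycin) and PODN (podocan) of the small leucine-rich family, with the large proteoglycans VCAN (versican) and HSPG2 (perlecan). They were chosen by name, each matched 1 row of the 24616 genes of the isthmus values, and 10 of 10 passed the filter on low and variable values.

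The isthmus was taken on day 4 after induced ovulation from 6 multiparous, healthy Nelore (Bos indicus) cows, 3 in the LF/LCL group (large follicle, large corpus luteum) and 3 in the SF/SCL group (small follicle, small corpus luteum), with 1 RNA-seq library per cow. The 6 cows shared a first synchronization with a prostaglandin F2α analog and a GnRH agonist, a progesterone-releasing device with 2 mg estradiol benzoate 10 days before day 0, prostaglandin at device removal and again 6 h later, and GnRH on day 0. LF/LCL cows also received prostaglandin when the device was inserted, and their device was removed 42 h before GnRH against 30 h in SF/SCL cows, so the groups differed in both. The sequenced cows were the extremes of a ranking by follicle, corpus luteum and hormone values, and the tissue covered the whole thickness of the oviduct on the side of the corpus luteum. The comparison asks how the hormonal environment around ovulation was reflected in these matrix transcripts.

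The libraries held from 23899117 to 34193164 reads, and the 10 genes had from 627 to 85491 reads in a library, where counting error alone is 3.99% at the lowest. The values are normalized counts, that is, reads divided by the size factor of the library. Smooth muscle, ciliated and epithelial markers were present in each library, PIFO, a cilium gene, was listed at 0 in each, and globin genes were at or near 0. Libraries 856 and 97 of the SF/SCL group stood apart from cow 489215 of the same group. The summed level of 8 smooth muscle markers was 728721 to 847464 in LF/LCL cows, 339479 and 399048 in cows 856 and 97, and 1227276 in cow 489215. The summed level of 9 secretory and general epithelium markers was 318448 and 380204 in cows 856 and 97 and 28844 to 67937 in the other 4 cows. OVGP1 held 69.2% of the sum over the 6 cows and carried this contrast. It had 271794 and 325158 normalized counts in cows 856 and 97 and 287 to 1950 in the other 4. EPCAM, KRT7, KRT8, KRT19 and MUC1 of the same list were highest in cow 489215, while KRT18 was highest in cow 97, PAX8 in cow 856 and ELF3 in cow 617. The summed level of 6 mesothelium markers was 26271 and 26912 against 2470 to 3512, led by MSLN and WT1. MSLN alone held 63.4% of that sum. LRRN4, UPK1B and UPK3B of the same list did not share this contrast. LRRN4 was at 175 to 412 normalized counts in LF/LCL cows and at 3.80 to 16.3 in SF/SCL cows. In whole tissue, fewer cells of a type and less RNA per cell cannot be told apart. Because of these differences, the fold changes and calls of the 10 genes, and the calls and medians of the related gene lists, are also given without cow 489215. That cow was singled out after its values had been seen, so the adjusted p-values without it are a description and not independent tests. The likeness between genes was computed with the 6 cows alone.

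Of the 10 members, 8 had a lower fitted mean in SF/SCL cows than in LF/LCL cows, and PRELP and PODN had a higher one. The clearest differences were in VCAN, ASPN and LUM, whose fitted levels in LF/LCL were 2.98, 2.20 and 2.00 times those in SF/SCL. The fitted level of HSPG2 was 2.28 times, but with a larger standard error (0.51 on the log2 scale). Its p-value in limma before adjustment was 0.055. In limma, 0 of 10 members passed an adjusted p-value of 0.05 in either direction, against 0% of the 15387 genes tested, and the smallest adjusted p of a member was 0.351, for VCAN. Before adjustment, 3 members with LF/LCL higher had a p-value under 0.05, VCAN, ASPN and LUM, where the share over all genes was 4.48%, and 0 members with SF/SCL higher did, where it was 4.19%. In edgeR 3 members with LF/LCL higher were also under 0.05 before adjustment, against 4.50% of genes, and 0 with SF/SCL higher, against 4.20%, and edgeR called 0 members and 0 genes after adjustment. DESeq2 called these 3 genes, against 1.38% of its 15079 genes with LF/LCL higher, and 0 members higher in SF/SCL, against 1.38%. These 3 genes were also picked by the study from the same libraries, so a count that holds them is not independent evidence of direction. The median log2 fold change (SF/SCL over LF/LCL, so that negative values are higher in LF/LCL) was -0.68 over the members and -0.02 over the genes tested.

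**Figure D1:**
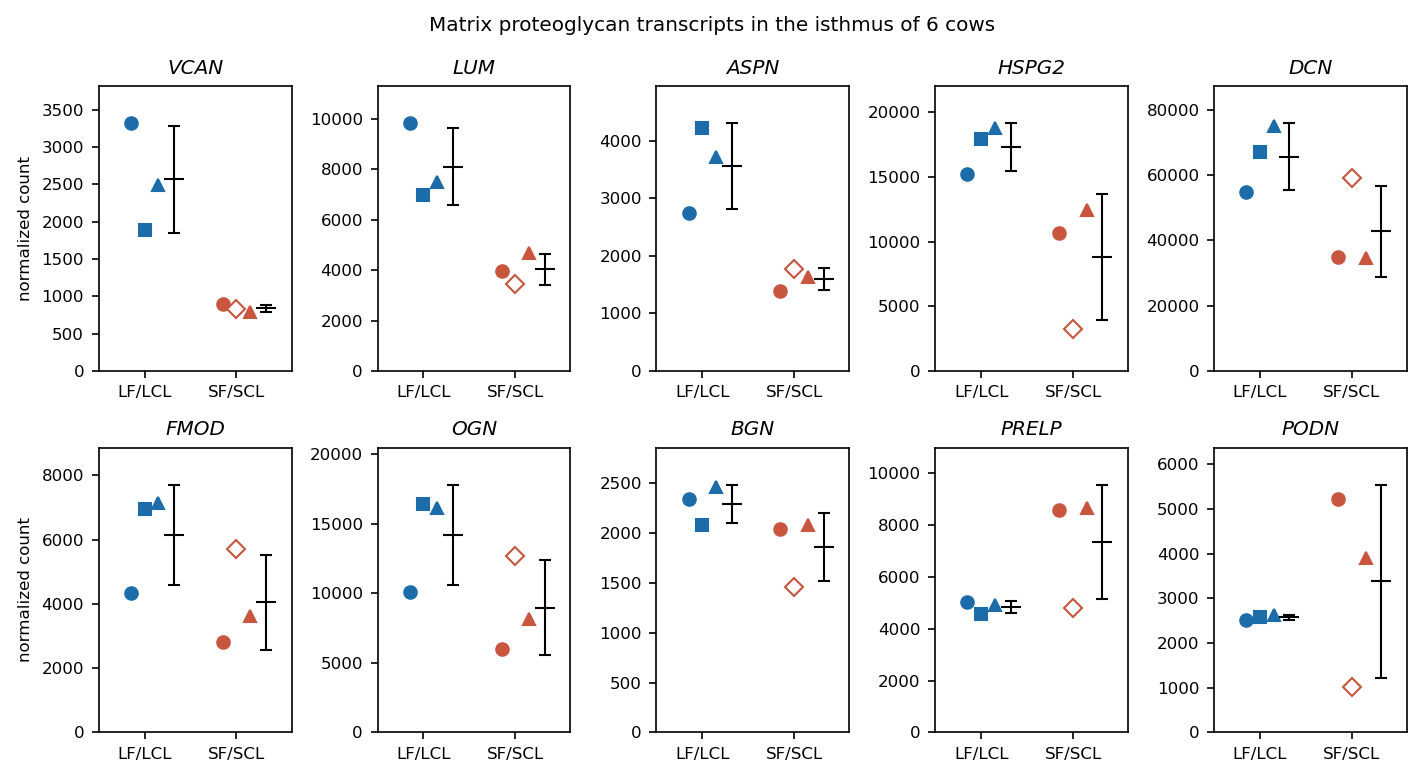
Normalized count (vertical axes, each from 0) of the 10 proteoglycan genes in each LF/LCL cow (blue; circle 617, square 79, triangle 527) and SF/SCL cow (red; circle 856, open diamond 489215, triangle 97), with the group mean and SD (n = 3) as a black bar. VCAN, LUM, ASPN and HSPG2 are separated between the groups, while the open diamond lies among or near the LF/LCL values for DCN, FMOD, OGN and PRELP.

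VCAN encodes versican, a large chondroitin sulfate proteoglycan that binds hyaluronan. Its normalized counts were 3322, 1895 and 2494 in LF/LCL cows 617, 79 and 527, and 893, 835 and 795 in SF/SCL cows 856, 489215 and 97. The groups did not overlap, and the LF/LCL cows varied more among themselves than the SF/SCL cows. The means were 2571 ± 717 and 841 ± 49.2 (SD, n = 3 each), and the log2 fold change was -1.57 (standard error 0.24). With 1.68% of the genes tested at a lower log2 fold change, VCAN lay furthest from 0 among the members. Its log2 fold change was the same to 2 decimals without cow 489215, and then passed the threshold (limma, adjusted p = 0.00797).

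LUM encodes lumican, which limits the lateral growth of collagen fibrils. It had normalized counts of 9839, 7005 and 7493 in LF/LCL cows 617, 79 and 527 against 3955, 3462 and 4693 in SF/SCL cows 856, 489215 and 97. The lowest LF/LCL cow was above the highest SF/SCL cow. LUM averaged 8112 ± 1515 in LF/LCL and 4036 ± 620 in SF/SCL (SD, n = 3 each). The fitted log2 difference was -1.002, with a standard error of 0.21. Without cow 489215 the log2 fold change of LUM was -0.90 (limma, adjusted p = 0.0161).

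ASPN encodes asporin, a collagen-binding member of the same class as decorin that carries a stretch of aspartate. The normalized counts were 2744, 4213 and 3717 in LF/LCL cows 617, 79 and 527, and 1389, 1773 and 1639 in SF/SCL cows 856, 489215 and 97. Again each LF/LCL cow was above each SF/SCL cow. ASPN averaged 3558 ± 747 and 1600 ± 195 (SD, n = 3 each) with a log2 fold change of -1.14 (standard error 0.22), which was -1.21 without cow 489215 (limma, adjusted p = 0.0101).

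HSPG2 encodes perlecan, the large heparan sulfate proteoglycan of basement membranes. It had 15202, 17905 and 18782 normalized counts in LF/LCL cows 617, 79 and 527, 10668 and 12446 in SF/SCL cows 856 and 97, and 3259 in cow 489215. The SF/SCL cows were below each LF/LCL cow, but the size of the difference rested largely on cow 489215, which had 0.282 times the mean of the other SF/SCL cows. The log2 fold change was -1.19 (standard error 0.51), with a 95% confidence interval from -2.41 to 0.04. Without that cow the log2 fold change was -0.58 (standard error 0.13, limma, adjusted p = 0.0258).

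VCAN, LUM, ASPN and HSPG2 were thus the 4 members whose groups did not overlap with LF/LCL higher, where 8.60% of the genes tested did the same, and 0 members lay apart with SF/SCL higher, against 9.51%. For each of the 4, the exact permutation test over the cows gave p = 0.1 (two-sided, n = 3 each), the smallest value this design allows. The count was 7 without cow 489215, when DCN, FMOD and OGN joined and 25.0% of genes did so, and it was also 7 without LF/LCL cow 617, against 13.5% of genes. PRELP and PODN lay apart with SF/SCL higher once cow 489215 was left out, against 26.9% of genes.

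DCN, FMOD and OGN shared another pattern. DCN encodes decorin, which coats collagen fibrils and binds TGF-beta, and had normalized counts of 54810, 67210 and 75090 in LF/LCL cows 617, 79 and 527, 34802 and 34659 in SF/SCL cows 856 and 97, and 58982 in cow 489215. FMOD encodes fibromodulin, which binds collagen and guides its cross-linking, and had 4351, 6954 and 7150 in the LF/LCL cows, 2823 and 3623 in cows 856 and 97, and 5698 in cow 489215. OGN encodes osteoglycin, also called mimecan, and had 10066, 16433 and 16141 in the LF/LCL cows, 6026 and 8137 in cows 856 and 97, and 12703 in cow 489215. In each of the 3 genes cow 489215 lay within the range of the LF/LCL cows, and cows 856 and 97 lay below it. Cow 489215 was 1.70 times the mean of cows 856 and 97 for DCN, 1.77 times for FMOD and 1.79 times for OGN. The log2 fold changes were -0.65 (standard error 0.30), -0.63 (0.33) and -0.70 (0.34), and their 95% confidence intervals reached from -1.36 to 0.06 for DCN, from -1.42 to 0.16 for FMOD and from -1.52 to 0.12 for OGN. Without cow 489215 the log2 fold changes were -0.91, -0.91 and -0.99, with adjusted p-values in limma of 0.0101, 0.0441 and 0.0377.

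BGN, the gene of biglycan and the nearest relative of DCN in the list, differed least among the members with a lower SF/SCL mean. Its normalized counts were 2340, 2079 and 2460 in LF/LCL cows 617, 79 and 527 and 2043, 1464 and 2081 in SF/SCL cows 856, 489215 and 97. Cow 97 was above cow 79, so the groups overlapped. The means were 2293 ± 195 and 1863 ± 345 (SD, n = 3 each), and the log2 fold change was -0.31, with a 95% confidence interval from -0.80 to 0.17. BGN was the member that did not pass without cow 489215, when its log2 fold change was -0.15, its interval ran from -0.40 to 0.10 and its adjusted p in limma was 0.352.

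PRELP and PODN went the other way in cows 856 and 97. PRELP encodes prolargin, which anchors basement membranes to the collagen beneath by binding heparan sulfate chains such as those of perlecan. It had normalized counts of 5037, 4563 and 4899 in LF/LCL cows 617, 79 and 527, 8589 and 8647 in SF/SCL cows 856 and 97, and 4797 in cow 489215. Cows 856 and 97 were higher than each of the LF/LCL cows, and cow 489215 lay within the LF/LCL range. PODN encodes podocan, known to restrain the growth and migration of smooth muscle cells, and had 2513, 2580 and 2632 in the LF/LCL cows, 5232 and 3908 in cows 856 and 97, and 1014 in cow 489215. Its SF/SCL values therefore lay on both sides of a narrow LF/LCL range, with a coefficient of variation of 2.31% in LF/LCL and 63.7% in SF/SCL. The log2 fold change was 0.55 for PRELP (95% confidence interval -0.09 to 1.19) and 0.09 for PODN (-1.32 to 1.51). That of PODN was -0.37 without cow 856 and -0.16 without cow 97. Without cow 489215 PRELP rose by 0.84 on the log2 scale and PODN by 0.81 in SF/SCL, with adjusted p-values in limma of 0.00314 and 0.0116.

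**Figure D2:**
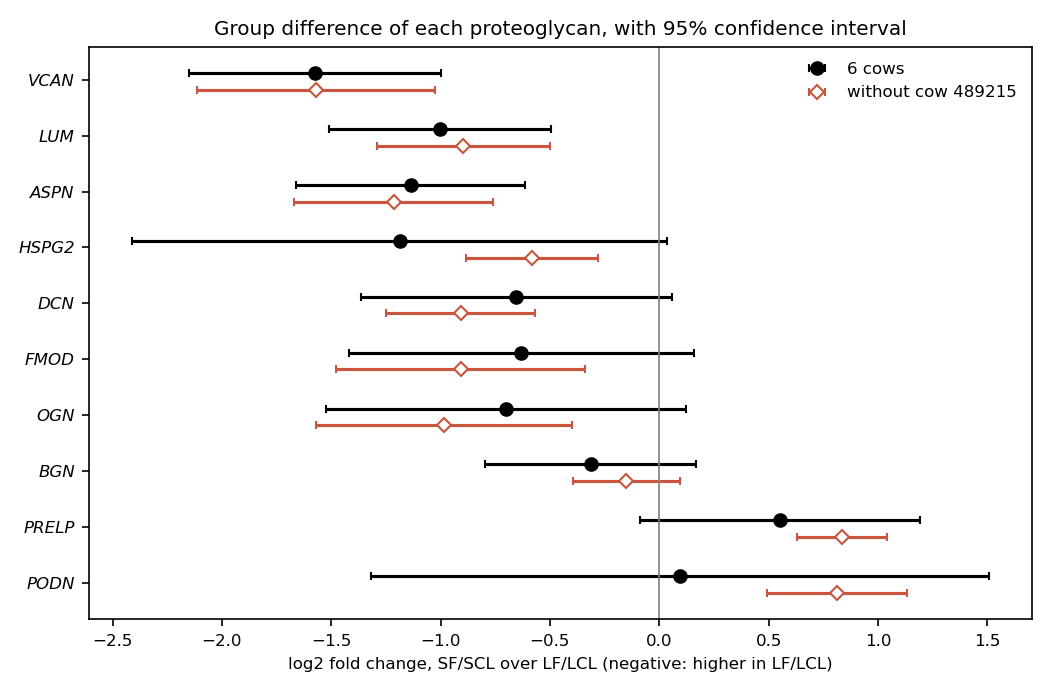
Log2 fold change of each gene, SF/SCL over LF/LCL (horizontal axis), with its 95% confidence interval from limma, with 6 cows (black circles) and without cow 489215 (open red diamonds). The intervals of VCAN, LUM and ASPN lie below 0 in both fits, and those of PRELP and PODN lie above 0 when that cow is left out.

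Without cow 489215, 9 of the 10 members were called, 7 with LF/LCL higher and 2 with SF/SCL higher. Over the 15495 genes then tested the shares were 7.92% and 10.3%. In edgeR, tried on the same 5 cows after the data had been seen, 7 members were called with LF/LCL higher, against 7.53% of genes, and 2 with SF/SCL higher, against 10.3%. The median standard error of the members was 0.28 with 6 cows and 0.15 with 5, and that of the genes tested 0.35 and 0.17. No other cow changed the number of adjusted calls when left out, which was 0 each time. Each cow was left out in turn, but cow 489215 was singled out after its values had been seen. The calls without it therefore describe these 5 cows and are not an independent test of the groups.

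Likeness between 2 genes was measured as the root mean square difference of their log2 values over the 6 cows, each centred on its own mean, so that 0 is an identical pattern. FMOD and OGN were the most alike of the 45 pairs of members, at 0.05, and each was also the nearest to the other among the 15387 genes tested. DCN was next, at 0.16 from FMOD and 0.18 from OGN, followed by the pairs of ASPN with OGN, DCN and FMOD at 0.32 to 0.34. Among the members LUM was nearest to VCAN, at 0.34, and PRELP to BGN, at 0.45, while PRELP and PODN were 0.51 apart. The least alike pair was OGN and PODN, at 1.13. Among genes outside the list, COL3A1, a fibrillar collagen, was the nearest to ASPN at 0.09, and CACNA1C, a calcium channel of smooth muscle, the nearest to HSPG2 at 0.08. FGD3 was the nearest to DCN at 0.06, followed by CSGALNACT1, which starts and extends chondroitin sulfate chains, at 0.07. The nearest genes were PSMD10 for BGN at 0.05, FOXL2 for LUM at 0.11, MPPE1 for PRELP at 0.08, CCDC13 for PODN at 0.07 and CLIP4 for VCAN at 0.16. These nearest genes were looked up after the members' values had been seen, and with 6 cows that share their libraries the distances are a description. Nearest to the mean pattern of the 10 members were ACOX3, GOLIM4, KIAA0895L, SLC41A3 and ROCK1, at 0.06 to 0.09.

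**Figure D3:**
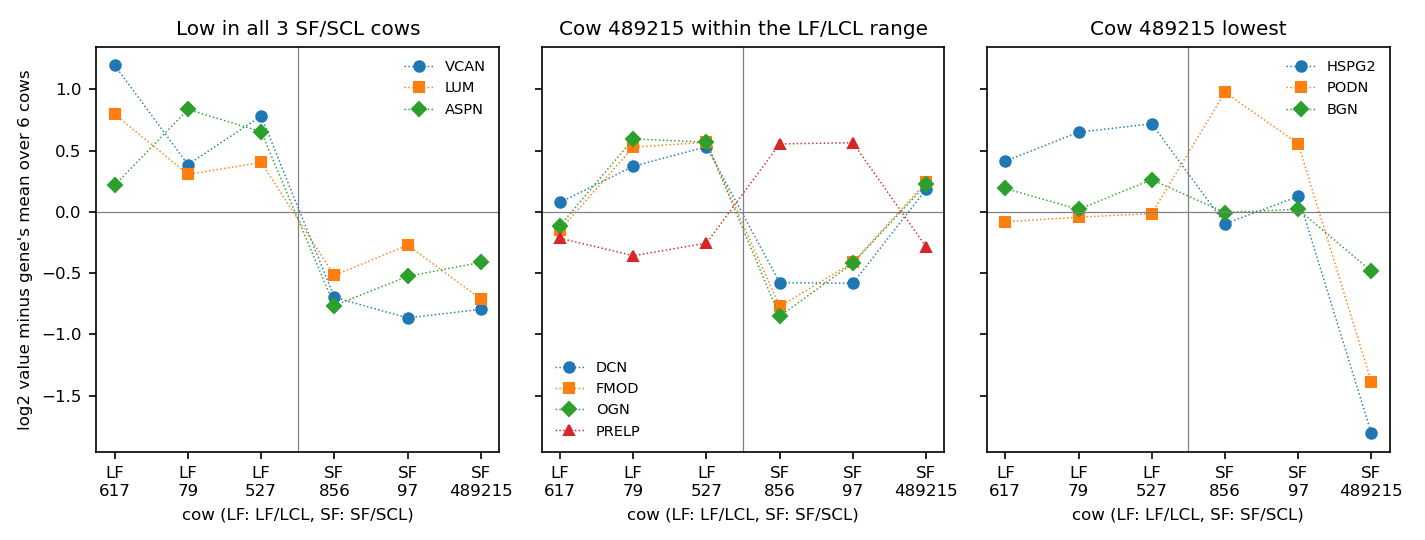
Log2(normalized count + 1) of each gene minus its mean over the 6 cows (vertical axis), by cow (horizontal axis, LF/LCL left of the grey line and SF/SCL right of it), with dotted lines only to lead the eye. VCAN, LUM and ASPN are low in the 3 SF/SCL cows, FMOD and OGN lie on each other with cow 489215 near the LF/LCL cows, and HSPG2, PODN and BGN are lowest in cow 489215.

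Several small leucine-rich proteoglycan genes stand side by side on the chromosome. In the RefSeq annotation of the Bos indicus assembly NIAB-ARS_B.indTharparkar_mat_pri_1.0, which is not the assembly of these counts and was used for gene order alone, EPYC, KERA, LUM and DCN follow each other, as do OGN, OMD, ASPN and ECM2, and FMOD, PRELP and OPTC. Neighbours did not have like patterns in each case. OGN and ASPN ranked as pair 4 of 45 by likeness, DCN and LUM as pair 12 and FMOD and PRELP as pair 33, whereas FMOD and OGN, the most alike, stand in different clusters. ECM2, next to ASPN, is described with the other proteoglycans. The remaining genes of these clusters outside the members were low or variable. EPYC was at 0 to 1.08 normalized counts, OPTC at 2.64 to 10.5 and OMD at 2.66 to 35.6. KERA (keratocan), next to LUM, ran from 220 to 5972 within the LF/LCL group and from 781 to 3983 within the SF/SCL group. In the same annotation the span of CENPP covers OGN and ASPN, and that of LDLRAD2 overlaps HSPG2, and since the use of strand in counting is not stated, reads of overlapping genes could not be told apart by strand.

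Relative amounts within a library do not depend on its scaling, so each member was also set against DCN of the same cow. The ratio itself also reflects gene length, and only its difference between cows is read here. FMOD and OGN followed DCN closely, with 79.4 to 104.5 FMOD and 173 to 244 OGN counts per 1000 DCN counts over the 6 cows, and log2 ratios that differed between the groups by 0.02 and -0.05. The ratios of VCAN and ASPN to DCN were lower in the 3 SF/SCL cows than in the 3 LF/LCL cows. Per 1000 DCN counts, VCAN stood at 60.6, 28.2 and 33.2 in LF/LCL cows 617, 79 and 527 and at 25.7, 14.2 and 23.0 in SF/SCL cows 856, 489215 and 97. In the same order, ASPN stood at 50.1, 62.7 and 49.5 in LF/LCL and at 39.9, 30.1 and 47.3 in SF/SCL. Its groups were thus close, and its ratio to BGN overlapped between them. The log2 ratio to DCN differed by -0.92 for VCAN and by -0.48 for ASPN (exact permutation test, two-sided, p = 0.1 each, the smallest possible, and 0.45 after Benjamini-Hochberg adjustment over 9 ratios). The other 7 ratios to DCN overlapped between the groups. PRELP stood at 247 and 250 per 1000 DCN counts in cows 856 and 97 and at 65.2 to 91.9 in the other 4 cows. HSPG2 stood at 307 and 359 in cows 856 and 97, at 250 to 277 in LF/LCL cows and at 55.3 in cow 489215.

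**Figure D4:**
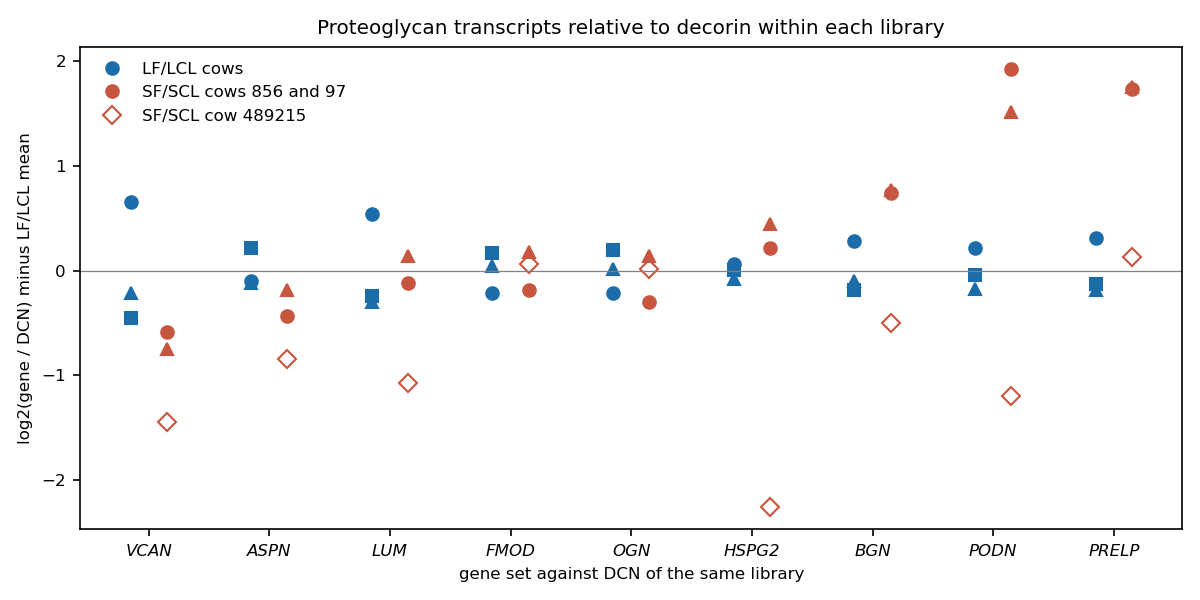
Log2 ratio of each gene to DCN within a library, minus the LF/LCL mean of that ratio (vertical axis), for the LF/LCL cows (blue), SF/SCL cows 856 and 97 (filled red) and SF/SCL cow 489215 (open diamond). FMOD and OGN stay near 0 in the 6 cows, VCAN and ASPN are lower in the SF/SCL cows, and PRELP and PODN are raised in cows 856 and 97.

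Of 19 other matrix proteoglycan genes found, 14 passed the filter, and 0 of them passed the adjusted threshold in limma. Before adjustment, 2 of them with LF/LCL higher were under 0.05 (background 4.48%), and the median log2 fold change of the 14 was -0.59. The 2 were PRG4, the lubricant of joints and serosal surfaces, at 163 to 343 normalized counts in LF/LCL and 34.2 to 126 in SF/SCL, and PODNL1, a relative of podocan, at 163 to 355 and 93.2 to 145. SPOCK1 (testican) had 7173 to 11205 in LF/LCL, 3003 and 3025 in cows 856 and 97 and 9405 in cow 489215, the arrangement seen for DCN, FMOD and OGN. ECM2, beside ASPN on the chromosome, had 4515 to 7048 in LF/LCL and 2637 to 5116 in SF/SCL. A pair of genes singled out after their values had been seen were high in cows 856 and 97. AGRN (agrin), another heparan sulfate proteoglycan of basement membranes, had 6782 and 7574 there, 2557 to 2953 in LF/LCL and 1097 in cow 489215. ESM1 (endocan), a secreted dermatan sulfate proteoglycan of endothelium, had 2140 and 1848 there and 33.4 to 92.1 in the other 4 cows, and was not tested because its SD exceeded its mean. Without cow 489215, limma called 3 of the 14 with LF/LCL higher, against 7.92% of genes, and AGRN with SF/SCL higher, against 10.3%, and the median was -0.40.

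Binding partners of the members were also examined. Of the 11 genes of fibril-forming and other collagens listed as partners of the small proteoglycans, 8 reached an unadjusted p-value under 0.05 in limma with LF/LCL higher. The share over all genes was 4.48%. After adjustment 0 passed the threshold in limma, and the median log2 fold change of the 11 was -1.06. Those with the smallest p-values were COL5A2, COL1A1, COL3A1 and COL5A3, with log2 fold changes of -1.10, -1.14, -1.06 and -1.06. The study had also picked COL1A1, COL3A1, COL5A3 and COL6A2, all among these 8, from the same libraries. This count is therefore not independent evidence of direction. COL14A1, a collagen that binds decorin on the fibril surface and was singled out after its values had been seen, had 12620 and 9118 in cows 856 and 97, 4070 to 4578 in LF/LCL and 1872 in cow 489215, the order also seen for PODN. Without cow 489215, 9 of the 11 were called with LF/LCL higher, against 7.92% of genes, and COL14A1 with SF/SCL higher, against 10.3%, and the median was -1.01.

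For the next 3 lists, the share of genes under 0.05 before adjustment with LF/LCL higher was again 4.48%. Of 18 genes of versican's partners and the proteases that cut it, 14 were tested and 6 reached this level with LF/LCL higher, with a median log2 fold change over the 14 of -0.74. ADAMTS4, a protease that cleaves versican, had a log2 fold change of -1.36, and ADAMTS9, another such protease, -1.23. FBLN1 and FBN1, matrix proteins that versican binds, had -0.85 and -0.71. HAPLN1, the link protein gene beside VCAN on the chromosome, was at 0 to 6.50 normalized counts. Among 12 rows for basement membrane partners of perlecan, 4 reached an unadjusted p-value under 0.05 with LF/LCL higher, with a median of -0.74. They were COL4A2, COL4A1, COL18A1 and a LAMC1 row, with log2 fold changes of -1.38, -1.27, -0.71 and -1.30. LAMC1 stands under a pair of identifiers between which its reads could have been divided, and the other row had -0.12. Of the 16 enzymes that build glycosaminoglycan chains on the core proteins, 1 reached an unadjusted p-value under 0.05, DSE, which makes dermatan sulfate, with a log2 fold change of -0.57. EXT1, a heparan sulfate polymerase, had 0.72, CSGALNACT1 -0.55 and DSEL -0.37, and the median of the 16 was -0.24. The study had also picked ADAMTS4, FBLN1, COL4A1, COL4A2, COL18A1 and LAMC1 from the same libraries. Counts that hold these genes are therefore not independent evidence of direction. In these 3 lists 0 genes passed the adjusted threshold in limma. Without cow 489215, limma called 4, 6 and 2 of them with LF/LCL higher, against 7.92% of genes, and 1, 0 and 2 with SF/SCL higher, against 10.3%, and the medians were -0.61, -0.60 and -0.26.

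Cell type marker sums also differed between the cows. The summed level of the 10 members was 110224 to 140858 in LF/LCL, 76419 and 80628 in cows 856 and 97, and 93988 in cow 489215. DCN held 51.4% of this sum over the 6 cows. The 12 fibroblast markers, with collagens and members left out, summed to 49159 to 60940 in LF/LCL, 35578 and 34012 in cows 856 and 97, and 79052 in cow 489215. The high sum in cow 489215 came from MFAP4 and S100A4. For 4 of the 12 the groups did not overlap, with LF/LCL higher, against 8.60% of genes. These 4, PI16, PDGFRB, CD34 and LOX, were lower in cow 489215 than in the other 5 cows. The study had also picked PI16 and LOX from the same libraries. PDGFRA, a growth factor receptor of fibroblasts, had 5927 to 9272 in LF/LCL, 3957 and 3093 in cows 856 and 97, and 6353 in cow 489215, as DCN, FMOD and OGN did. The 10 ciliated cell markers summed to 31431 to 40039 in LF/LCL, 52421 and 56995 in cows 856 and 97, and 30837 in cow 489215. Of the 9 tested, 2 reached an unadjusted p-value under 0.05 in limma with SF/SCL higher, against 4.19% of genes. Of the 8 epithelial markers tested, 5 did so, and 4, among them KRT8 and EPCAM, were higher in the 3 SF/SCL cows than in each LF/LCL cow, against 9.51% of genes. With LF/LCL higher, 4 of the 12 fibroblast, 1 of the 8 smooth muscle and 1 of the 7 endothelial markers were under 0.05 before adjustment, against 4.48% of genes. The 7 endothelial markers summed to 12947 to 16495 in LF/LCL and 11139 to 15311 in SF/SCL, and the 9 leukocyte markers to 2080 to 3888 and 1949 to 3337. After adjustment limma called 0 of the markers with 6 cows. Without cow 489215 it called 6 of the 12 fibroblast, 6 of the 8 smooth muscle and 3 of the 7 endothelial markers tested with LF/LCL higher, against 7.92% of genes, and 7 of the 9 ciliated and 3 of the 8 epithelial markers with SF/SCL higher, against 10.3%. It called 0 of 8 leukocyte markers, and of the 2 mesothelium markers then tested 1 in each direction. The medians without that cow were -0.78 for fibroblast and 0.98 for ciliated markers, so these marker lists moved in the same 5 cows in which 9 members were called. The part of these cell type markers in the differences of the proteoglycan genes was not tested. The smooth muscle sums, of which ACTA2 held 36.9%, were lowest in cows 856 and 97 and highest in cow 489215 among the 6. MYH11 and SYNPO2, 2 of the 8 markers in that sum, were instead below their LF/LCL range in each of the 3 SF/SCL cows, against 8.60% of genes. VCAN, LUM and ASPN were also below their LF/LCL range in each of these cows.

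**Figure D5:**
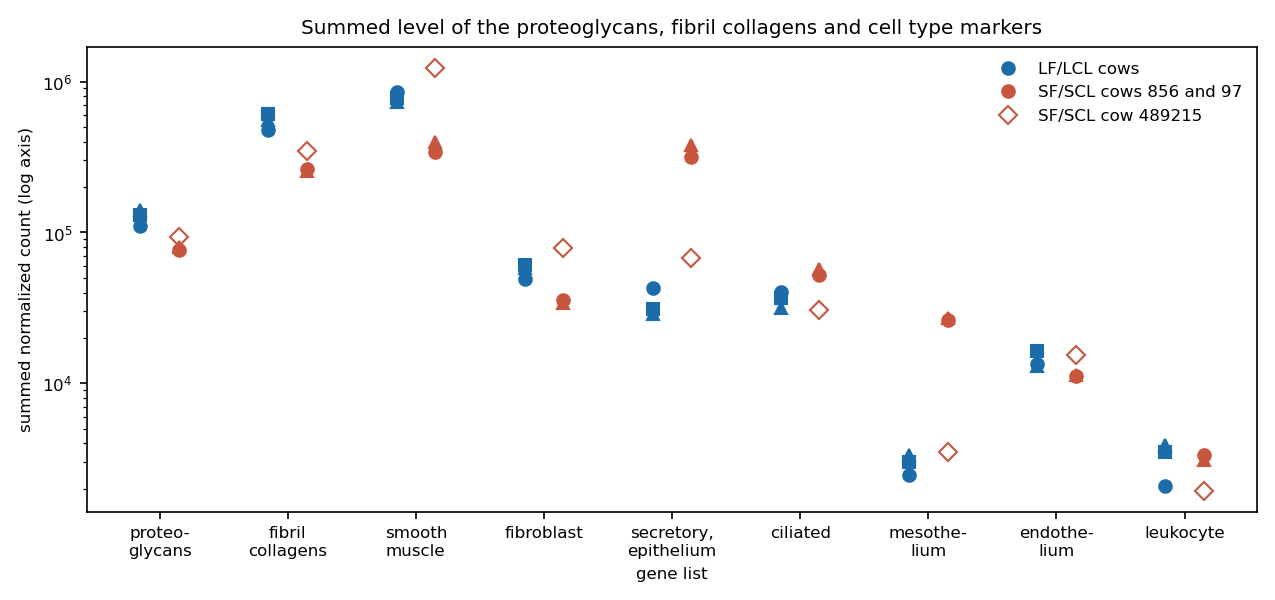
Summed normalized count of each gene list (vertical log axis) in the LF/LCL cows (blue), SF/SCL cows 856 and 97 (filled red) and SF/SCL cow 489215 (open diamond). The proteoglycan and fibril collagen sums are lower in the 3 SF/SCL cows, while the smooth muscle and fibroblast sums are lowest in cows 856 and 97 and highest in cow 489215.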

How the data were processed

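Per the labels and the methods of the study, poly(A) libraries were sequenced as paired ends, reads were mapped with TopHat2 2.0.8 and Bowtie2 2.1.0 to the masked bovine assembly UMD3.1 and counted per Ensembl gene with HTSeq. The deposited signal values are read counts that the authors scaled with DESeq size factors, which ran from 0.751 to 1.32. In each library the values stepped by the worth of 1 read, and 100% of the 147696 values came out as whole reads within 0.01 of a read or 0.001 normalized counts, so count models could be run on these reads.

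The filter worded in the study's methods was applied to the 6 isthmus libraries, so that a gene needed a mean over 5 that also exceeded its SD, which kept 15387 genes. The mean alone, an alternative, kept 15922, which is the number of isthmus genes that the study reports testing. How the study computed the SD is not stated in more detail. The main test was limma 3.58.1 in R 4.3.3 (trend and robust) on log2(value + 1), because the values are normalized and a fold change on this scale understates that of low genes; edgeR 4.0.16 and DESeq2 1.42.0 were alternatives. P-values were adjusted over all genes tested (Benjamini-Hochberg, 0.05). Scripts were tested on simulated data. Named genes were the members, up to 4 genes with the smallest p-values of each list, and the 5 genes nearest to the mean pattern. AGRN, ESM1, COL14A1, HAPLN1, the chromosomal neighbours, the genes nearest to single members and the single cell type markers fall outside this rule and were named after their values were seen. COL6A2 also falls outside it and was named because the study had picked it. Members and lists were chosen with earlier results of these data known. Levels were not compared between genes, since transcript lengths were not used here. Intervals cover 3 cows per group, and counting error alone for reads. Other software was Python 3.11.15, numpy 2.4.6, pandas 2.3.3, scipy 1.17.1 and matplotlib 3.10.9.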

Additional observations from a re-analysis of the deposited data

How the results depend on the processing

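The direction of VCAN, LUM, ASPN, HSPG2, DCN, FMOD, OGN, BGN and PRELP was the same in limma under the other pseudocounts, filters, scalings and moderation, in edgeR and DESeq2, and with each cow left out. Among the members PODN alone reversed, without cow 856 or cow 97, and ranged between -0.37 and 0.81 as cows were left out. The median log2 fold change of the members was -0.92 to -0.49. The number of members called was 0 in limma and edgeR with 6 cows, 3 in DESeq2, 0 to 9 with each cow left out, and 9 in edgeR without cow 489215, an alternative chosen after seeing the data. The 0 to 9 rests on cow 489215. Members at an unadjusted p-value under 0.05 with LF/LCL higher numbered 3 to 7 with each cow left out and 6 when scaled by library size alone. Those without overlap numbered 4 to 7, the upper value without cow 489215 or cow 617. Ratios to DCN without overlap numbered 2 to 6 as cows were left out, with 6 without cow 489215, and 4 with BGN as the reference. Those 4 were VCAN, LUM and HSPG2 with LF/LCL higher and PRELP with SF/SCL higher, while ASPN overlapped. The log2 ratio differences to DCN ranged across 0 for FMOD (-0.0851 to 0.125), OGN (-0.154 to 0.0787), LUM (-0.59 to 0.0107) and HSPG2 (-1.02 to 0.33). The causes were not tested. With 3 cows a group, an exact test of a single gene cannot go below 0.1.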
